A study of Mus musculus with 8 samples.

Results

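Circular RNAs (circRNAs) of the kidney were compared directly between a pair of injury models in the mouse, unilateral ureteral obstruction (UUO, 3 libraries) and acute-chronic injury (AC, 2 libraries). All 6315 circRNAs in the deposited count table were members of the comparison, and 1471 of them (23.3%), from 1016 host genes, had enough counts to be tested. These 5 libraries are part of a series of 8, and the other 3 are controls. The kidneys came from C57BL/6L mice (the strain as the labels spell it) aged 8 to 10 weeks, and total RNA was extracted with Trizol. UUO and AC kidneys were taken on day 5. The controls are titled WT in the labels and described as sham-operated in the design text. That text speaks of ischaemia/reperfusion, whereas the sample labels speak of acute-chronic injury, and neither gives the surgical steps of the AC model. No label gives a transgene or a drug for any group. The labels do not say that replicate libraries came from separate animals, so the p-values below measure the spread between libraries, which may be technical.

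A circRNA forms when the splicing machinery joins the end of an exon to the start of the same or an earlier exon of its host gene, which leaves a closed ring without free ends. Because it has no ends for exonucleases to attack, a circRNA can persist for longer than the linear transcript of the same gene, and its level need not follow that of the linear mRNA. In UUO the ureter is tied, so that back pressure dilates the tubules, which leads to tubular injury, inflammation and interstitial fibrosis. Ischaemia followed by reperfusion injures mainly the proximal tubule, and incomplete repair of that tubule is a known route from acute to chronic kidney disease. Whether the mixture of circRNAs in the kidney tells one kind of injury from the other is the question this comparison addresses.

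The summed counts were 46899, 50985 and 57754 in the 3 UUO libraries and 49147 and 40865 in the 2 AC libraries. One read pair or read spanning a back-splice junction thus weighed much: 3 counts were worth 63.0 to 87.5 CPM in the injured libraries. CPM is edgeR's depth-scaled count, here taken over the circRNAs that passed the filter and scaled by the trimmed mean of M values (TMM), so that libraries of unequal depth can be compared. The UUO libraries held 3463, 3579 and 3697 circRNAs above 0, and the AC libraries held 3396 and 3471. The means were 3580 ± 117 (SD, n = 3) and 3434 ± 53.03 (SD, n = 2), a difference of 146.2 (exact two-sided permutation test, p = 0.3, where 0.1 is the smallest p that 3 libraries against 2 can give). Summing the deposited signal over circRNAs gave 4.86 ± 0.228 (SD, n = 3) for UUO against 4.60 ± 0.304 (SD, n = 2) for AC (exact two-sided permutation test, p = 0.4). Neither overall measure separated the models beyond the spread between libraries. Of the listed circRNAs, 580 had no count in any of the 5 injured libraries.

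UUO libraries were more alike than libraries of different models, and the AC libraries were not. Across the tested circRNAs, Pearson's r of the log2 CPM was 0.761 to 0.775 between UUO libraries, 0.682 between the 2 AC libraries and 0.696 to 0.739 between a UUO and an AC library. These values describe circRNAs that share a library and its depth. The AC pair was therefore less alike than each of the 6 pairs that cross the models. Between the 2 AC libraries, 527 tested circRNAs (35.8%) differed by over 2-fold. The labelled tissue could be checked only in part, because just 7 of 41 cell type marker genes had a listed circRNA. They included Lrp2, the endocytic receptor megalin of the proximal tubule, whose circRNA had 27, 25 and 13 counts in UUO and 26 and 21 in AC. None of the 13 markers of fibroblasts, macrophages and lymphocytes had one, so the share of these cells cannot be read from this table. In bulk kidney RNA, fewer cells of a type and less of an RNA per cell cannot be told apart.

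No circRNA told UUO and AC apart after adjustment for multiple testing. Under edgeR's quasi-likelihood test with Benjamini-Hochberg adjustment, 0 of 1471 circRNAs (0.0%) had an adjusted p under 0.05. DESeq2 called 2, of Spast and Frmd4b, and limma-voom called 0. At an unadjusted p under 0.05, 82 circRNAs of 75 host genes differed (5.57%), 45 higher in UUO (3.06%) and 37 higher in AC (2.52%). Evenly spread p-values alone would give 73.55 such circRNAs, so the observed number lies near the background. The lowest p was 9.02e-05, with an adjusted p of 0.133. A circRNA that was the only one to pass would have needed a p of 3.40e-05.

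The differences were centred near 0. The median log2 fold change of UUO over AC was 0.06, with 779 positive and 690 negative values, and the median absolute value was 0.44. A fitted difference of 2-fold or more was seen for 244 circRNAs, of which 143 were higher in UUO and 101 in AC. The libraries of the models did not overlap for 358 circRNAs (24.3%), with UUO above AC for 194 (13.2%) and AC above UUO for 164 (11.1%). There are 10 assignments of 3 libraries against 2. If all were equally likely, each direction would hold a share of 0.1, so the observed shares lie near that background. Among the 82 circRNAs with an unadjusted p under 0.05, 75 did not overlap. For comparison, the same fit called 64 circRNAs in UUO against control (4.35%), 42 higher (2.86%) and 22 lower (1.5%). It called 49 in AC against control (3.33%), 28 higher (1.9%) and 21 lower (1.43%).

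The standard errors set how large a fitted difference had to be to reach a threshold. For the 1450 tested circRNAs with counts in both models, the median standard error of the log2 fold change was 0.64, and the median 95% interval reached 1.35 to either side. A typical circRNA thus needed a fitted difference of 2.54-fold to reach an unadjusted p of 0.05 and 11.96-fold to be the first adjusted call. A true difference of that size can be estimated lower and miss the threshold. To be found reliably, a true difference had to be larger. With the standard errors measured here, a fitted 2-fold difference would have reached an unadjusted p of 0.05 for 413 circRNAs. A fitted 4-fold difference would have reached it for 1116. As a first adjusted call, a fitted 2-fold difference would have sufficed for 3 circRNAs, a 4-fold one for 182 and an 8-fold one for 538. Conversely, the interval lay wholly within 2-fold of no difference for 171 circRNAs (11.8%) and within 4-fold for 817 (56.3%).

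Precision was higher for more abundant circRNAs. The class with a mean of 100 or more counts in the injured libraries held 68 circRNAs. Their median fitted difference needed was 1.42-fold for an unadjusted p of 0.05 and 2.57-fold for a first adjusted call. The interval of 60 of these 68 (88.2%) lay within 2-fold, and the largest absolute log2 fold change among them was 0.93. For the 113 circRNAs with a mean of 50 to 100 counts, the needed differences were 1.60-fold and 3.498-fold, and 55 intervals (48.7%) lay within 2-fold. For the 322 with a mean of 20 to 50 counts they were 1.90-fold and 5.48-fold. For the 432 circRNAs with a mean under 10 counts and counts in both models (of 452 in this class), the median needed difference was 4.85-fold for an unadjusted p of 0.05 and 66.6-fold for a first adjusted call. In the most abundant class a difference over 2-fold was therefore mostly outside the interval. Under 10 counts, 42 of 432 intervals lay within 4-fold, and a fitted 4-fold difference would have reached an unadjusted p of 0.05 for 144. Counting error made up a median of 30.2% of the squared standard error, with 25.5% under 10 counts and 19.98% in the most abundant class. The rest of the squared error is spread between libraries beyond counting.

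**Figure D1:**
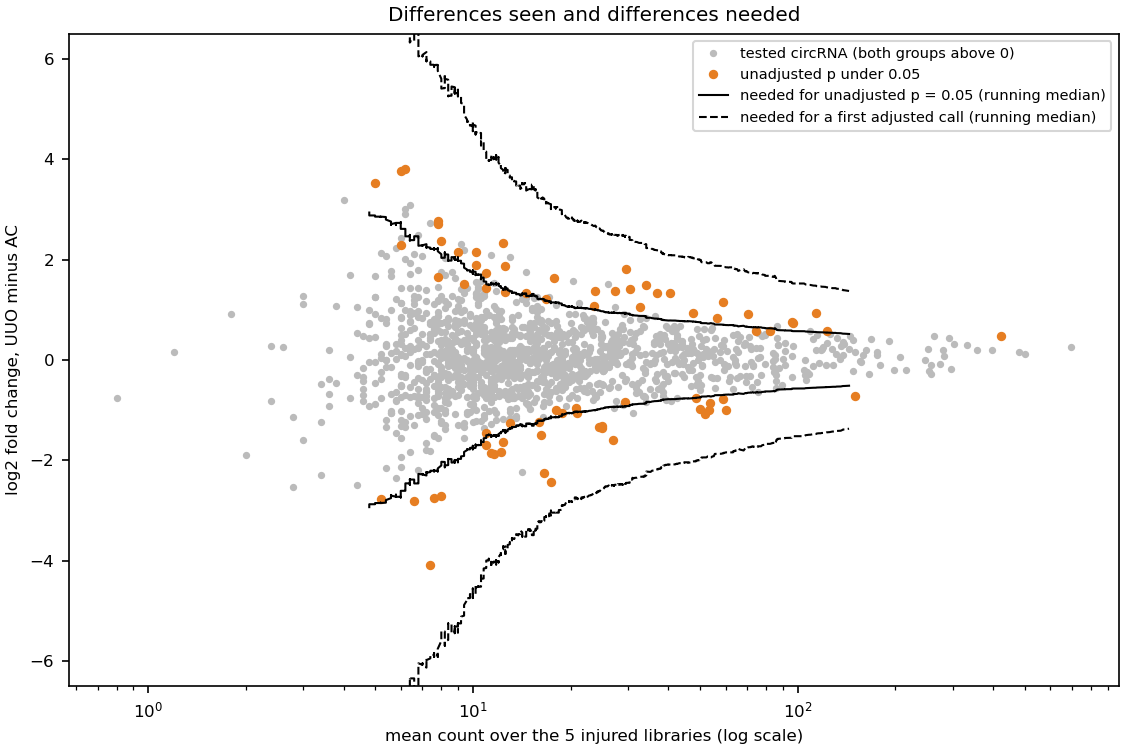
Each point is a tested circRNA with counts in both models, placed by its mean count over the 5 injured libraries (log axis) and its log2 fold change, UUO minus AC; orange points have an unadjusted p under 0.05. The solid and dashed lines are running medians of the fitted difference needed for an unadjusted p of 0.05 and for a first adjusted call. Both pairs of lines close in towards 0 as the mean count grows, and the points with 100 or more counts stay within 0.93 of 0.

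The circRNAs with the lowest p-values in the AC direction were nearly absent from the UUO libraries. The circRNA of Spast, which encodes the microtubule-severing ATPase spastin, was mmu_circ_0006994. It had 0 counts in all 3 UUO libraries, 21 and 14 counts in AC, and 4, 27 and 10 counts in the controls. Its AC level was 452 ± 61.1 CPM (SD, n = 2), 19.5-fold that of UUO when UUO is set at a floor of 3 counts over the group. Such a floor ratio leaves out the spread of the model that has counts, so it is not a lower bound. Without UUO replicate 3, the deepest UUO library, the floor ratio was 12.4. Its adjusted p was 0.133 with edgeR and 0.00338 with DESeq2. The AC libraries lay within the range of the controls, and the 3 UUO libraries were the only ones of the 8 without a count.

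Frmd4b encodes a FERM-domain scaffold protein, and its circRNA mmu_circ_0013632 had 0, 0 and 3 counts in UUO, 23 and 11 in AC, and 11, 45 and 26 in the controls. The 3 UUO counts were all in replicate 3. The ratio of AC to UUO was 19.2, with an interval of 6.03 to 97.6 that covers counting error only. The adjusted p was 0.158 with edgeR and 0.0383 with DESeq2. The circRNA mmu_circ_0008223 of Dennd1b, an exchange factor for the endosomal GTPase Rab35, was instead detected in AC alone. It had 35 and 19 counts in AC and 0 in each of the UUO and control libraries. Its AC level was 689 ± 191 CPM (SD, n = 2), with a floor ratio to UUO of 29.8, or 18.9 without UUO replicate 3. Its adjusted p was 0.158 with edgeR and 0.857 with DESeq2. These 3 were chosen among circRNAs whose UUO and AC libraries did not overlap, so that separation is a criterion and not a result. The Dennd1b circRNA passed the filter only through the AC libraries, where it is high. Its ratio and p-values therefore rest on the counts that chose it and describe it only.

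The other circRNAs nearest to a call in the AC direction were present in both models. None passed the adjusted threshold (adjusted p = 0.816 or more with edgeR). The circRNA of Ate1, the arginyltransferase of the N-degron pathway, had 22, 12 and 15 counts in UUO and 47 and 29 in AC. Its log2 fold change was -1.35 (SE 0.42). That of Tbc1d14, a regulator of autophagy, had 51, 48 and 38 counts against 93 and 71 (-1.0, SE 0.32). Tcf25, a component of the ribosome quality control complex, gave 24, 40 and 50 counts against 104 and 41, where AC replicate 2 had fewer counts but a higher CPM than the deepest UUO library (-1.08, SE 0.36, or -0.46 without AC replicate 1). The circRNA of Trip6, a LIM-domain protein of the zyxin family, was the most abundant of the 10, with 125, 134 and 119 counts against 232 and 142 (-0.71, SE 0.26). The remaining 3 were those of Atp2a2, the calcium pump SERCA2 (-1.24, SE 0.44), of Zkscan1, a zinc-finger gene whose circRNA is well studied in liver (-1.85, SE 0.67, or -2.83 without UUO replicate 2), and of Xrcc4, the partner of DNA ligase IV in end joining (-1.64, SE 0.60). Xrcc4 had 7 counts in each UUO library and 32 and 9 in AC, with AC replicate 1 far above the other 4, and without it the difference was -0.69.

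On the UUO side, the lowest p-values belonged to better-covered circRNAs. The leading one was mmu_circ_0001764 of Arhgap32. It stood at 3274, 3339 and 3422 CPM in UUO and at 1814 and 1692 CPM in AC. The means were 3345 ± 74.6 (SD, n = 3) and 1753 ± 86.4 (SD, n = 2), which put UUO 1.91-fold above AC. The log2 fold change was 0.93 (SE 0.24, 95% interval 0.42 to 1.44, adjusted p = 0.469 with edgeR). The controls had 4281, 6511 and 5541 CPM, above both models, so the AC libraries were the lower of the injured ones.

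Cryl1 encodes an enzyme of the uronate cycle (L-gulonate dehydrogenase), and its circRNA mmu_circ_0000543 showed the same order. It had 2335, 1728 and 2142 CPM in UUO, 1037 and 1167 in AC, and 5743, 6587 and 7423 in the controls. UUO was 1.88-fold above AC (log2 0.91, SE 0.25, adjusted p = 0.582 with edgeR). The circRNA of the zinc-finger gene Zfp292 had 1649, 1518 and 2163 CPM in UUO and 872 and 729 in AC, 2.21-fold apart (log2 1.15, SE 0.32, adjusted p = 0.582). Its controls, at 1941, 1340 and 1633 CPM, overlapped UUO and lay above AC. A second Arhgap32 circRNA, mmu_circ_0001763, had 1370, 1004 and 945 CPM in UUO and 212 and 583 in AC (log2 1.5, SE 0.43, adjusted p = 0.582), and the difference was 2.38 without AC replicate 2.

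The rest of the UUO side was sparse apart from Svep1, with an adjusted p of 0.816 or more for each circRNA with edgeR. Clasp2 encodes a protein that tracks microtubule plus ends. Its circRNA mmu_circ_0001850 had 20, 10 and 17 counts in UUO, 0 in both AC libraries and 3, 0 and 1 in the controls. Its floor ratio of UUO to AC was 9.36, or 4.18 without AC replicate 1, and its fitted 95% interval reached down to 5.65-fold. The circRNA mmu_circ_0007737 of Cpeb3, which binds cytoplasmic polyadenylation elements and regulates translation, had 21, 8 and 16 counts in UUO, 6 and 0 in AC and 95, 108 and 124 in the controls (log2 2.14, SE 0.71). Without AC replicate 2, the library at 0, its difference was 1.30. Tpr, a filament protein of the nuclear pore basket, gave 13, 11 and 12 counts against 0 and 3, a ratio of 7.09 with a counting interval of 2.24 to 36.0, and all 3 AC counts were in replicate 2. Without AC replicate 1 the fitted log2 difference of Tpr was 1.64, against 2.70 with all libraries. The circRNA of Zfp148, a Krüppel-type transcription factor, had 25, 22 and 28 counts against 6 and 8, 3.09-fold apart (log2 1.63, SE 0.54). Faf1, a cofactor of the segregase VCP, gave 17, 14 and 13 counts against 5 and 2 (log2 1.90, SE 0.67, or 2.49 without AC replicate 1). Svep1 encodes a large secreted matrix protein, and its circRNA had 38, 70 and 58 counts against 9 and 28 (log2 1.34, SE 0.48). The difference of Svep1 was 0.64 without AC replicate 1 and 2.59 without AC replicate 2. All of these were chosen among circRNAs whose lowest UUO library lay above the highest AC library in CPM, so that separation is a criterion and not a result.

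**Figure D2:**
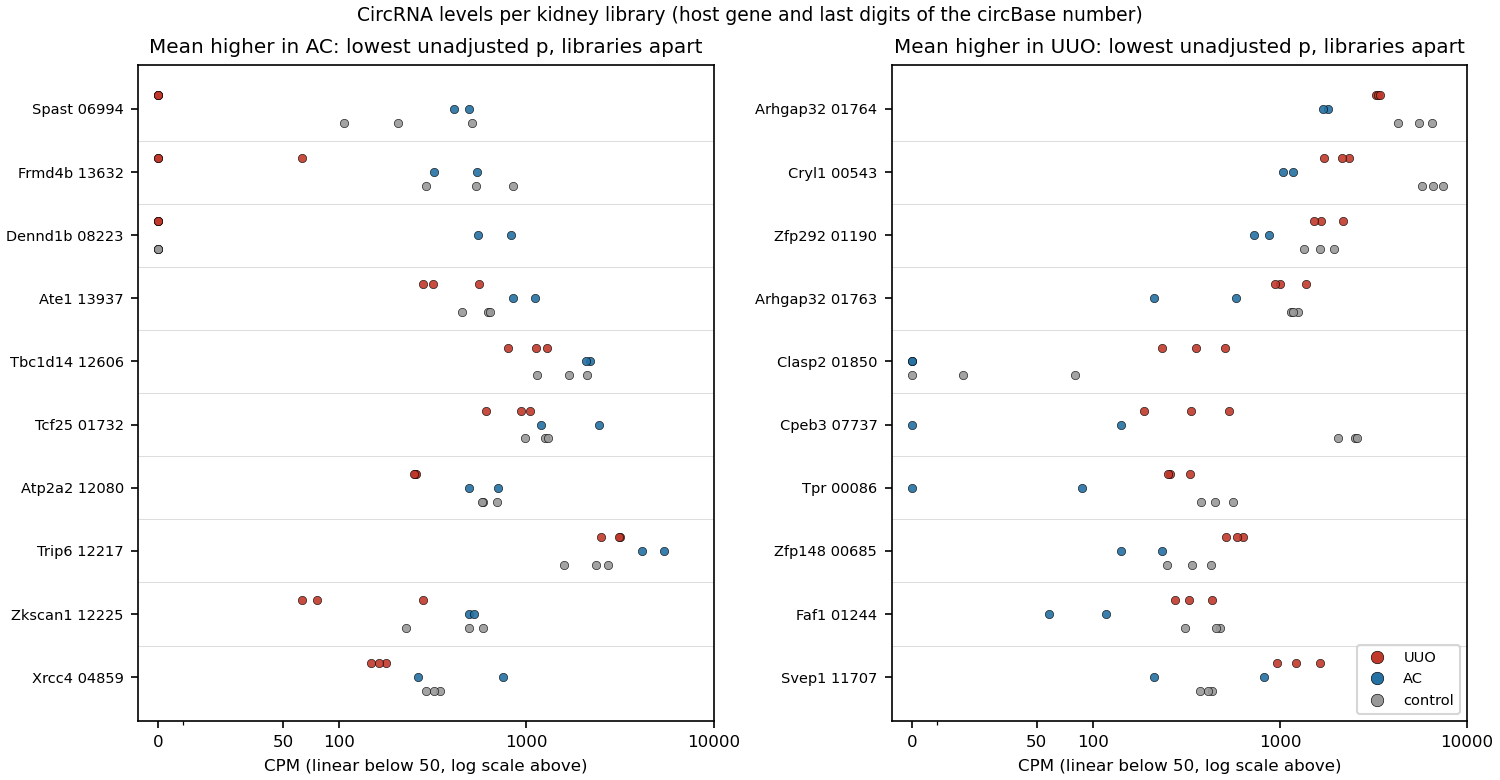
CPM of the 10 circRNAs per direction with the lowest unadjusted p and no overlap between UUO (red) and AC (blue) libraries; grey points are the controls, each point is 1 library, and the axis is linear below 50 CPM and logarithmic above. The left panel shows those with the higher mean in AC, led by Spast at 0 in all UUO libraries, and the right panel those with the higher mean in UUO, led by Arhgap32 at 3274 to 3422 CPM in UUO and 1692 to 1814 CPM in AC.

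Of the 9 listed circRNAs of Arhgap32 5 were tested, and all 5 had a positive fitted difference. The third well-covered one, mmu_circ_0001765, had 1929, 2218 and 2016 CPM in UUO and 1343 and 1400 in AC (log2 0.58, SE 0.25, adjusted p = 0.816 with edgeR). For mmu_circ_0015520 the difference was 0.57 with an interval of -0.30 to 1.45. The last of the 5, mmu_circ_0015524, had 15, 5 and 0 counts in UUO and 0 in both AC libraries. Its interval ran from -0.16 to 11.85. When counts were summed per host, Arhgap32 had 324, 342 and 338 counts in UUO and 172 and 145 in AC. The summed level was 6981 ± 628 CPM (SD, n = 3) for UUO against 3767 ± 39.2 CPM (SD, n = 2) for AC, while the controls stood at 11328 ± 1912 CPM (SD, n = 3). UUO was 1.85-fold above AC (log2 0.89, SE 0.18, interval 0.51 to 1.27).

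The host-summed test covered 1185 host genes and called 0 of them (0.0%) with edgeR, with 71 at an unadjusted p under 0.05 (5.99%). DESeq2 called 1 and limma-voom called 0. Arhgap32 had the lowest p of these, 9.47e-05, with an adjusted p of 0.0979. The adjusted p of Arhgap32 was 0.00411 with DESeq2 and 0.0337 in an edgeR fit of the 5 injured libraries alone, and 0.289 with limma-voom. It also passed in edgeR fits without control replicate 1 (0.0375) or control replicate 2 (0.00464). Arhgap32 did not pass without control replicate 3, without any single UUO library, or when replicate number was added to the model. CircRNAs of one host share a gene and a promoter and are not independent of each other.

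For other hosts the fitted differences were of mixed sign or size. Dennd1b had 3 further tested circRNAs, and their log2 fold changes were -0.01, 0.21 and -0.42, the first with an interval of -0.69 to 0.67 and the second of -0.40 to 0.83. Only mmu_circ_0008223 was at 0 in every UUO library. For Cpeb3 the other tested circRNAs gave -0.38 and -0.92, against 2.14 for mmu_circ_0007737. For Zfp148 they gave -0.21 and 0.37, and a second Tpr circRNA gave 0.21. For Ate1 they gave 0.17 and 0.15, against -1.35 for the one named above. For Tbc1d14 they gave 0.22, 0.67 and -0.92, against -1.0, and a second Xrcc4 circRNA gave 0.81, against -1.64. A second Clasp2 circRNA, mmu_circ_0015332, had 19, 10 and 0 counts in UUO and 11 and 16 in AC. Whether circRNAs of one host differ from each other in their response was not tested.

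**Figure D3:**
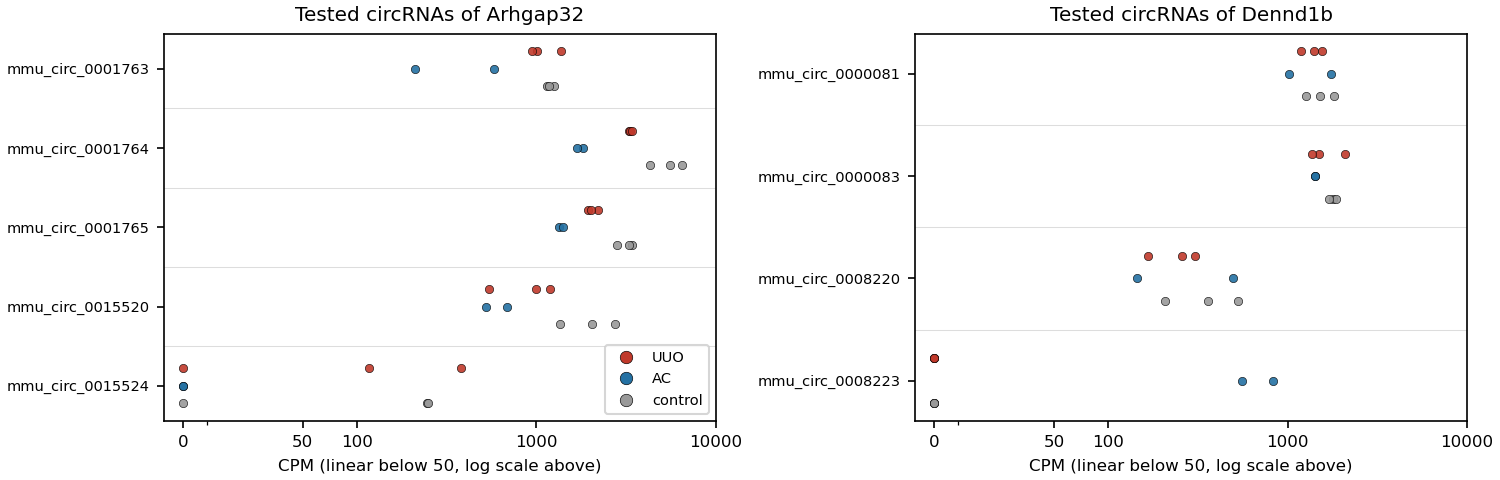
CPM per library of every tested circRNA of Arhgap32 (left) and Dennd1b (right) in UUO (red), AC (blue) and control (grey); the axis is linear below 50 CPM and logarithmic above. The 5 Arhgap32 circRNAs all have the higher mean in UUO, whereas in Dennd1b only mmu_circ_0008223 is at 0 in UUO and control.

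Presence in one model and absence from the other was seen for few of the listed circRNAs and rested on few counts. At 0 in both AC libraries and above 0 in all 3 UUO libraries were 109 of the 6315 listed circRNAs. They had a median of 9 counts summed over UUO, and 91 of them had a count in a control library. At 0 in all UUO libraries and above 0 in both AC libraries were 101 of the 6315. Their median summed count was 5, and 68 of these had a control count. Only 3 of each group passed the filter and were among the 1471 tested circRNAs. After Clasp2, the UUO group was led by Fbxw7, whose protein is the substrate-recognition part of a ubiquitin ligase. Its circRNA mmu_circ_0010819 had 9, 9 and 24 counts in UUO (floor ratio 8.03, or 3.59 without AC replicate 1). A better-covered Fbxw7 circRNA, mmu_circ_0010820, was present in both models, with 81, 60 and 93 counts in UUO and 47 and 52 in AC. Next came Fer, a non-receptor tyrosine kinase, with 3, 11 and 14 counts (floor ratio 5.35, or 2.39 without AC replicate 1). Dock10 had 8, 12 and 5 counts (floor ratio 5.01, or 2.24 without AC replicate 1). Slc45a4 had 6, 12 and 6 (floor ratio 4.76, or 2.13 without AC replicate 1). After Dennd1b and Spast, the AC group held Ahctf1, a nucleoporin gene, with 13 and 7 counts (floor ratio 11.05, or 6.996 without UUO replicate 3). It also held Slc25a30, a mitochondrial carrier gene, with 16 and 2 counts. Hsdl2, a peroxisomal dehydrogenase gene, had 8 and 7 counts (floor ratio 8.50, or 5.38 without UUO replicate 3). The floor ratio of Slc25a30 was 9.42, and it was 2.53 without AC replicate 1 and 5.97 without UUO replicate 3. The circRNAs named here were chosen for being at 0 in one model with a high summed count in the other. Their floor ratios therefore describe them and test nothing.

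The circRNAs called against control in both models differed from control in the same direction in each. UUO and AC share the same 3 control libraries, so the 2 comparisons with control are not independent. In both of them 33 circRNAs were called, 22 higher and 11 lower than control, and a choice of circRNAs called in both favours likeness between the models. Their direct differences had a median of 0.19 and a median absolute value of 0.26, beside 0.06 and 0.44 for all tested circRNAs. For 16 of the 33 the interval lay within 2-fold of no difference (171 of 1450, 11.8%, over all). Of the 33, 3 had an unadjusted p under 0.05 (Cpeb3, Cryl1 and Psd3, beside 5.57% over all), and 0 passed the adjusted threshold with edgeR.

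Among those higher than control, mmu_circ_0004549 of Dcdc2a, a doublecortin-family gene that marks tubule cells with failed repair, had 3172, 3526 and 3569 CPM in UUO and 2285 and 2479 in AC. The controls had 133, 75.5 and 82.7 CPM, so both models were far above them, with UUO above AC in every library. The direct difference was 0.52 (SE 0.26, interval -0.03 to 1.08, adjusted p = 0.857 with edgeR). The circRNA of Nfkb1, a subunit of the transcription factor NF-kappaB, differed the other way, at -0.31 with an interval of -0.92 to 0.29. Nrg1, which encodes a ligand of ErbB receptors, had 23, 41 and 18 counts in UUO and 24 and 0 in AC, and its interval ran from -0.82 to 3.07. Its difference was 1.12, and 0.19 without AC replicate 2. The circRNA of Osmr, the receptor subunit for oncostatin M, gave 0.50 (-1.46 to 2.46), that of Nav3 gave 0.43 (-1.40 to 2.26), and that of Espl1, which encodes separase, gave 0.00 (-1.91 to 1.91). These intervals include differences of over 2-fold in one direction or both. The circRNA mmu_circ_0001683 of Psd3, an exchange factor for ARF6, was also higher than control in both models. It had 3403 ± 111 CPM (SD, n = 3) in UUO and 2290 ± 474 (SD, n = 2) in AC, a log2 difference of 0.57 (interval 0.03 to 1.12, adjusted p = 0.852 with edgeR).

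Among the 11 that were lower than control in both models, 10 had a positive direct difference (779 of 1471 over all), with the lower mean in AC. For these same 11 the number held under each scaling tried. They were chosen with the libraries that the direct test uses, so the count describes them and tests nothing. The standard error of Cryl1 against control was 0.257 in AC and 0.207 in UUO. Whether such standard errors bear on the count was not tested. Of the 22 that were higher than control, 8 had a positive difference (10 with the constants that link the deposited tables as library sizes). The lower ones included those of Cpeb3 and Cryl1 above and that of Ogdh, the 1 with the higher mean in AC. Klhl3, part of the ubiquitin ligase that controls the distal tubule's salt transport, had 10, 18 and 12 counts in UUO and 2 and 17 in AC, with an interval of -1.08 to 1.59. In CPM, AC replicate 1 (47.1) lay below the UUO range of 252 to 420 and AC replicate 2 (496) above it. The difference of Klhl3 was -0.68 without AC replicate 1 and 2.65 without AC replicate 2.

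**Figure D4:**
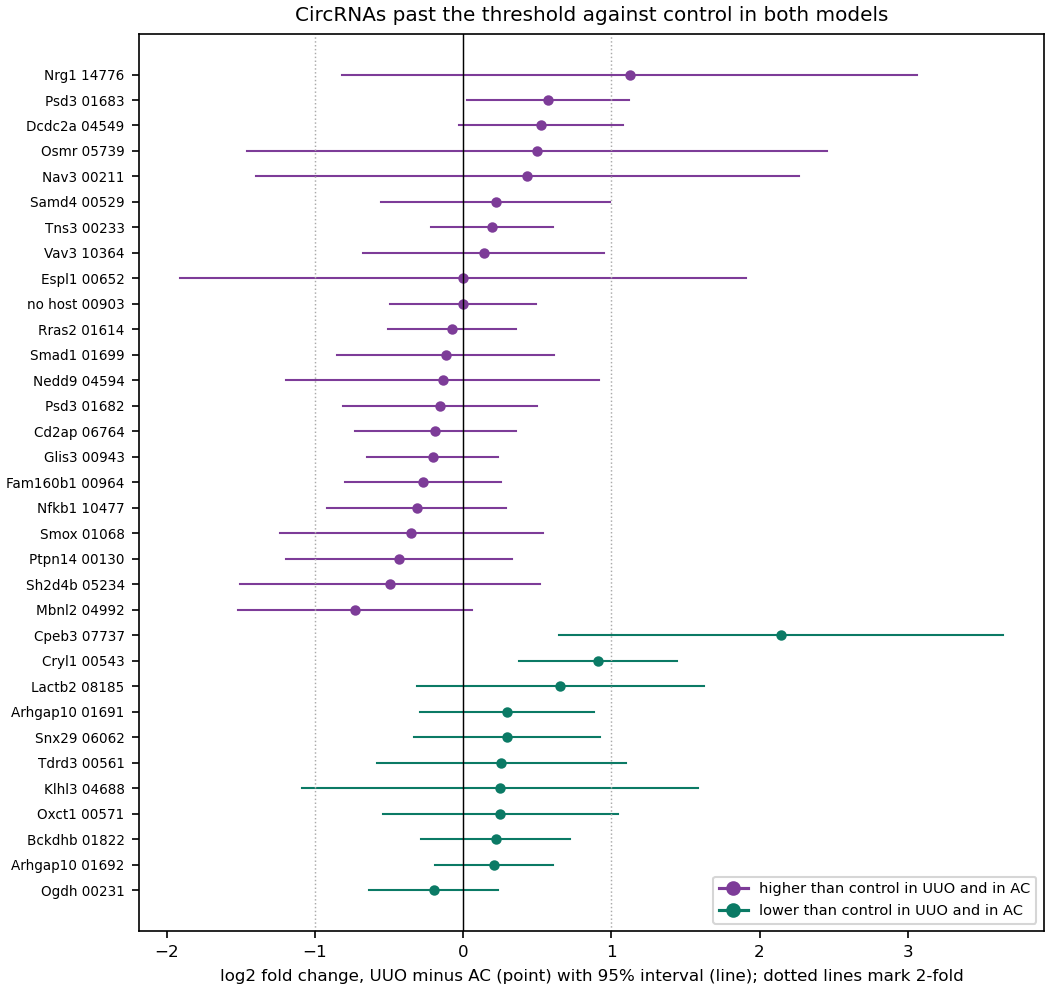
Direct log2 fold change, UUO minus AC (points), with its 95% interval (lines), for the 33 circRNAs called against control in both models; purple marks those higher and green those lower than control, and dotted lines mark 2-fold. Of the 11 green points 10 lie to the right of 0, while the purple ones lie on both sides, 8 of 22 to the right.

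A call against control in 1 model alone was not by itself a difference between the models. Of the 31 circRNAs called in UUO and not in AC, 30 had the same sign against control in AC, and the direct test had an unadjusted p under 0.05 for 10 (5.57% over all tested circRNAs) and an adjusted p under 0.05 for 0 with edgeR. The models did not overlap for 14 of the 31 (24.3% over all), and the median absolute direct difference was 0.48 (0.44 over all). The following examples of them were chosen after their values were seen. The circRNA of Dlc1 had 26, 46 and 55 counts in UUO and 12 and 9 in AC (log2 1.81, adjusted p = 0.816 with edgeR). That of Epb4.1l2, a membrane-skeleton protein gene, had 38, 35 and 52 counts against 12 and 15 (log2 1.42, adjusted p = 0.816 with edgeR). Gucy1a2, a subunit of soluble guanylate cyclase, gave 31, 37 and 44 counts against 11 and 14, a log2 difference of 1.37. Rftn1, a lipid-raft protein gene, gave 30, 49 and 72 against 7 and 26, a log2 difference of 1.34, or 0.59 without AC replicate 1 and 2.79 without AC replicate 2.

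Of the 16 circRNAs called in AC and not in UUO, 15 had the same sign in UUO. The direct test had an unadjusted p under 0.05 for 11 (5.57% over all) and an adjusted p under 0.05 for 0 with edgeR. The models did not overlap for 13 of the 16 (24.3% over all), and the median absolute direct difference was 0.96 (0.44 over all). Both this set and the previous one were chosen with the libraries that the direct test uses, so these counts describe them and test nothing. The 16 included 4 circRNAs of Arhgap32, those of Dennd1b, Tpr and Trip6 above, and the following ones, chosen after their values were seen. Pms1, a mismatch-repair family gene, had 77, 71 and 64 counts in UUO and 40 and 31 in AC (log2 0.83, adjusted p = 0.816 with edgeR). Slc4a4, the basolateral sodium-bicarbonate cotransporter of the proximal tubule, had 23, 15 and 21 counts against 10 and 4 (log2 1.33, adjusted p = 0.816 with edgeR), and the difference was 1.94 without AC replicate 1. Jmjd1c, of a histone demethylase family, had 20, 42 and 61 counts against 90 and 54, a log2 difference of -0.99.

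The most abundant circRNAs were close between the models. Of the 10 with the highest mean CPM, 9 had a higher mean in UUO, and the log2 differences ran from -0.19 to 0.47. The top circRNA was mmu_circ_0000057 of Gigyf2, a translational repressor gene, at 17825 ± 2409 CPM (SD, n = 3) in UUO and 14995 ± 3715 (SD, n = 2) in AC. Its difference was 0.25 with an interval of -0.12 to 0.62. The intervals were similarly narrow for Rnf169, a ubiquitin-binding protein of DNA breaks (0.11, -0.27 to 0.49), Rasa2, a Ras GTPase-activating protein (0.15, -0.22 to 0.52), and Mettl9, a histidine methyltransferase (0.21, -0.16 to 0.57). Tns3, which encodes the focal-adhesion protein tensin 3, had 2 circRNAs among the 10. One, mmu_circ_0000234, stood at 11374 ± 2619 CPM (SD, n = 3) in UUO and 8228 ± 1441 (SD, n = 2) in AC (0.47, interval 0.03 to 0.91, adjusted p = 0.836 with edgeR), with overlapping libraries. The other gave 0.19 (-0.22 to 0.61). The circRNA of Cd2ap, a slit-diaphragm adaptor, was the one with the higher mean in AC (-0.19, -0.73 to 0.36). For all 10 the interval excluded a 2-fold difference in either direction.

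In 15 lists of hosts fitting kidney injury, 107 tested circRNAs of 76 hosts were found, and 0 passed the adjusted threshold with edgeR. Of the 107, 50 were higher in UUO and 57 in AC, with a median difference of -0.09. Those at an unadjusted p under 0.05 numbered 14 (13.1%), where the share of all tested circRNAs was 5.57%. The lists were compiled with earlier results of these data known and hold hosts already seen to differ from control, so this share is no evidence that the lists stand apart. No tested circRNA came from the endothelial list or the macrophage and lymphocyte list.

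The nephron lists held few circRNAs. Of 4 from proximal tubule hosts, 1 was higher in UUO (Slc4a4, above) and 3 in AC, with a median of -0.29. The circRNA of Slc7a8, a neutral amino acid transporter, was among the latter, at 787, 747 and 1050 CPM in UUO and 1013 and 1138 in AC (-0.31). From loop, distal and collecting duct hosts there were also 4, with 2 in each direction. The 2 failed-repair circRNAs were those of Dcdc2a and Nfkb1, which differed in opposite directions. The podocyte list held Cd2ap alone, and the fibroblast and matrix list held only a circRNA of Adam10, a sheddase gene (-0.61).

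The signalling lists each held more circRNAs with the higher mean in AC, and none passed the adjusted threshold with edgeR. Of 8 circRNAs from TGF-beta and BMP hosts, 3 were higher in UUO and 5 in AC (median -0.06), and 1 had an unadjusted p under 0.05 (5.57% over all tested circRNAs). It came from Smad4, the common mediator of the pathway, and had 3172, 2429 and 2688 CPM in UUO and 1790 and 1517 in AC (mmu_circ_0000894, 0.74, adjusted p = 0.816 with edgeR). Another Smad4 circRNA, mmu_circ_0007496, had the largest difference of the list, 1.27 (3.38 without AC replicate 1, 0.50 without AC replicate 2). Of 13 from Wnt and Hippo hosts, 5 were higher in UUO and 8 in AC (median -0.20), led by Apc, the scaffold of the beta-catenin destruction complex, at -1.35. The difference of Apc ranged from -3.21 without UUO replicate 3 to -0.30 without AC replicate 2. Of 14 from cytokine and growth factor hosts, 5 were higher in UUO and 9 in AC (median -0.24). The 3 tested circRNAs of Fgfr2, a fibroblast growth factor receptor, were all higher in AC, at -1.29, -0.34 and -0.75. The circRNA of Igf1r, the receptor of insulin-like growth factor, stood at 812, 1051 and 1134 CPM in UUO and at 1555 and 2071 in AC (-0.85, adjusted p = 0.816 with edgeR).

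Of 14 circRNAs from mitochondrial and metabolic hosts, 10 were higher in UUO and 4 in AC, with a median of 0.24. The 2 with an unadjusted p under 0.05 (5.57% over all tested circRNAs) were Cryl1 and Papss1, which makes the sulphate donor PAPS. Papss1 had 381, 444 and 357 CPM in UUO and 259 and 29.2 in AC (1.36, adjusted p = 0.852 with edgeR), and its difference was 3.62 without AC replicate 1 and 0.61 without AC replicate 2. In contrast, Ogdh, a subunit of a citric acid cycle enzyme, had 4415, 4554 and 4640 CPM in UUO and 4994 and 5426 in AC (-0.20, interval -0.64 to 0.24). From adhesion and actin hosts came 21 circRNAs, 11 higher in UUO and 10 in AC (median 0.06). Of them, 4 and 1 were at an unadjusted p under 0.05 (3.06% and 2.52% over all tested circRNAs). They included 3 of Arhgap32 and 1 of Tns3 on the UUO side and Frmd4b on the AC side. The 4 circRNAs of cell cycle and p53 hosts were split evenly, with the largest difference, 0.67, in Bub1b, a spindle checkpoint gene.

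Hosts that themselves bind RNA gave 13 circRNAs, 5 higher in UUO and 8 in AC (median -0.22). Besides Cpeb3, they included Mbnl2, a splicing factor of the muscleblind family, with 888, 817 and 567 CPM in UUO and 1084 and 1429 in AC (-0.73, interval -1.52 to 0.06). Of 10 circRNAs from hosts of much-studied circRNAs, 5 were higher in each model (median 0.08). They ranged from Zkscan1, with 76.1, 280 and 63.0 CPM in UUO and 495 and 525 in AC, to Rims2 at 2.06 (adjusted p = 0.874 with edgeR, 1.02 without AC replicate 1). The circRNA of Hipk3, a nuclear kinase gene, had 2512, 3246 and 3842 CPM in UUO and 2332 and 2742 in AC, and its interval of -0.33 to 1.01 included no difference.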

How the data were processed

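The 8 total RNA libraries of mouse kidney (3 UUO, 2 AC, 3 control) were used as the authors' circRNA tables. HISAT2, StringTie and the build mm9 are named in the submitters' processing notes, without versions or roles, with the junction caller and annotation not given in the sources used here. The authors deposited a table of raw counts per circBase circRNA, from 40865 to 65145 counts per library, and a table of normalised signal. The deposited signal equalled the count divided by 1 constant per library, to within 0.00053 of a whole count, and the meaning of the constant is not given. No coordinates and no circRNA sequences are printed, because the reference used here is of another build. Host symbols are those of the table, and 10 that had become numbers were restored through their transcripts.

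Groups came from the sample labels. Counts were filtered with edgeR's filterByExpr (minimum count 10, total 15), scaled by TMM and fitted with edgeR 4.0.16 (R 4.3.3) in 1 quasi-likelihood model over all 8 libraries and 3 groups, contrast UUO minus AC, with Benjamini-Hochberg adjustment over all 1471 circRNAs and a threshold of 0.05. The controls entered the fit to estimate the spread. Standard errors were taken from the F statistic and 95% intervals from its degrees of freedom. The script was tested on simulated data. Floors for a group at 0 were 3 counts over the group. A floor ratio covers the counting error of the group at 0 alone, and ratio intervals cover counting error only. Counts summed per host were fitted alike. DESeq2 1.42.0, limma-voom (limma 3.58.1), other scalings and filters, the 5 injured libraries alone, a replicate block and leaving out each library were alternatives.

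Named circRNAs followed a rule. They were those past the adjusted threshold; otherwise, per direction, the 10 with the lowest unadjusted p whose UUO and AC libraries did not overlap; the 10 most abundant; the 5 with the highest summed count at 0 in one model, each way; 10 called against control in both models; and the largest difference of each host list. The members and lists were chosen with earlier results of these data known.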

Additional observations from a re-analysis of the deposited data

How the results depend on the processing

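The 0 adjusted circRNA calls became 4 with no filter on low counts (Dennd1b, Spast, Frmd4b and Sltm), 2 with DESeq2 (Spast and Frmd4b) and 1 with the 5 injured libraries alone (Dennd1b). They ranged from 0 to 1 over the fits that leave out 1 library, where the 1 was Sltm without AC replicate 1. The 82 circRNAs at an unadjusted p under 0.05 became 211 of 6315 with no filter, 53 of 721 with a minimum count of 20 and 48 with the replicate block, and ranged from 55 to 158 over the fits without 1 library. The 158 came without AC replicate 2, where the lone AC library is assumed to vary like the other groups. The 0 host calls became 1 with DESeq2 and 1 with the 5 injured libraries (Arhgap32), and 0 to 1 without 1 library (Arhgap32 without control replicate 1 or 2, Sltm without AC replicate 1). The median reach of the 95% interval to either side, 1.35, was 0.938 with a minimum count of 20, 1.18 with the 5 injured libraries, 1.55 with the replicate block and 1.29 to 1.70 without 1 library. The differences in circRNAs above 0 (87.5 to 204.5) and in summed signal (0.0396 to 0.470) kept their sign without any 1 injured library. Among the named circRNAs 3 reversed: Rnf169 (-0.083 to 0.35 without 1 library; -0.0013 without UUO replicate 1 and -0.083 without AC replicate 1), Klhl3 (-0.68 to 2.65 without 1 library, the ends being without AC replicate 1 and AC replicate 2; -0.036 without UUO replicate 2) and Espl1 (0.052 with the deposited constants, 0.027 with no filter, 0.041 with the replicate block and -0.25 to 0.13 without 1 library, above 0 without UUO replicate 1 or 3, AC replicate 1 or control replicate 3). The other values for single circRNAs and host sums were 1077 that kept side and direction and 10 that passed only under the alternative. Of 64 named circRNAs, 16 moved by over 1.5-fold without 1 library while both models kept counts, 15 of them without an AC library; their values stand beside the results. The cause of these changes was not tested. Replicate numbers are shared between groups, but same-numbered libraries correlated at -0.113 to 0.0417, so the block was not read as a pairing; the adjusted p of Spast, Frmd4b and Dennd1b under the block was 0.998. Counting error, which depth sets, made up a median of 30.2% of the squared standard error.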

Other observations

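For 3 of the 1471 tested circRNAs the injury models lay on opposite sides of the controls with no overlap. The circRNA mmu_circ_0000685 of Zfp148 was above the controls in UUO and below them in AC, as was that of D14Abb1e (mmu_circ_0005146, direct difference 0.52, adjusted p = 0.874 with edgeR). The circRNA mmu_circ_0009942 of Strbp, an RNA-binding protein gene, had 5, 6 and 10 counts in UUO, 19 and 15 in AC and 15, 20 and 20 in the controls, with AC just above the controls in CPM and UUO below (-1.45, adjusted p = 0.816 with edgeR). Of the 1471 tested, both models lay above the controls for 97 circRNAs and below them for 95.

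Some circRNAs came from 1 library alone. In all, 11 had 10 or more counts in 1 library and 0 in the other 7. The circRNA mmu_circ_0001803 of Sltm had 90 counts in AC replicate 2, mmu_circ_0000682 of Lrch3 had 35 in UUO replicate 2, and mmu_circ_0002829 of Slc38a10 had 14 in AC replicate 2. The filter left Sltm out of the test; with no filter its adjusted p was 1.26e-10 with edgeR, although the other AC library had no count.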
